A study of Mus musculus with 4 samples.

Results

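The 2-cell-like state genes followed here are 10 named genes: Zscan4c, Zscan4d, Zscan4f, Zfp352, Tcstv1, Tcstv3, Tdpoz4, Tmem92, Sp110 and Zfp750. They were found by symbol in the platform annotation, where 14 probe sets of the 41345 on the array carried at least 1 of them. Of these, 11 probe sets named a single gene and 3 named several. 9 of the 10 genes had a probe set of their own, among 22180 genes that did. Zscan4f was measured through probe sets that also name Zscan4a, Zscan4b, Zscan4c, Zscan4d and Zscan4e, and these are kept as 1 shared Zscan4 unit. The 10 units described below are therefore this shared unit and the 9 genes with their own probe set.

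Expression was measured on 4 arrays of embryoid bodies, the aggregates in which embryonic stem cells start to differentiate, grown from the mouse embryonic stem cell line R1. After removal of feeder cells, the cells were held for 18 h without LIF, the cytokine that sustains self-renewal, in EB medium that held no addition, the solvent DMSO, GSK-J5 or GSK-J4, the compounds both at 1.88 µM. GSK-J4 is an inhibitor directed at the KDM6 enzymes, which take the methyl mark of Polycomb off lysine residues of histone H3. GSK-J5 is its isomer used as the control compound, here at matched dose and time. All 4 groups share the line, the time and the absence of LIF, and each has 1 array. A difference between arrays therefore has no replicate check and no p-value, and self-renewing cells were not analysed here.

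A small share of cells in mouse embryonic stem cell cultures passes at any time through a state in which genes of the 2-cell embryo are active. The transcription factor Dux switches on Zscan4, Zfp352, Tcstv and Tdpoz genes, and the H3K9 methylation machinery and the chromatin assembly factor CAF-1 keep them silent in the other cells. Zscan4 proteins are known for a role in telomere maintenance. Because each array averages over a whole culture, more cells in this state and more RNA in each such cell cannot be told apart.

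The RNA carried the markers of embryonic stem cells. Of 13 markers of stem cells and early embryoid bodies, 12 reached the level used below as the filter. Of 11 measured fibroblast markers 4 reached it, and of 10 primitive and visceral endoderm markers 6 did. By the rule of size below, 2 stem cell and embryoid body markers were lower in GSK-J4, Fgf5 and Dnmt3b, both genes of the epiblast. Of the fibroblast and endoderm markers 0 were counted. By the same rule 0.841% of all genes at the filter level were lower and 2.21% higher. All 3 lists had their lowest summed log2 level in GSK-J4. It was 138.33, with 141.49 to 141.69 over the controls, for stem cell and embryoid body markers. It was 66.96 against 68.50 to 69.50 for fibroblast markers, and 67.73 against 69.00 to 69.44 for endoderm markers. In the first list the largest differences were in Fgf5 (7.23 against 8.66 to 8.83) and Dnmt3b (11.30 against 12.07 to 12.18). Pou5f1 read 9.69 against 9.74 to 9.81 and Nanog 13.05 against 13.11 to 13.20. Tdgf1 read 12.33 against 12.69 to 12.71 and Otx2 9.11 against 9.42 to 9.50. Sox2 and Zfp42 lay inside the range of the controls, and Esrrb (8.97 against 8.73 to 8.86) and Klf4 (9.26 against 8.88 to 9.01) above it. Of the 13 markers in this list, 9 lay below all 3 controls in GSK-J4 and 2 above them. The shares over all genes were 36.3% and 30.6%. The part of these markers in the results was not tested. The array medians lay between 6.63 and 6.65, and all values given are log2 RMA values as deposited unless called a difference. A unit passed the filter when it averaged at least 6.585, the 40th percentile of gene means. By this definition 13314 of all 22180 genes passed, and that share stands beside every count of genes at the filter. The margin of a unit is how far its GSK-J4 value lies outside the range of the 3 controls, and it is 0 inside that range. Units past the filter with a margin of at least 1.5-fold (0.585 on the log2 scale) were counted.

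The upstream sequences of the Zscan4 members are shown because they make visible how alike these genes are before their starts. Transcript and probe sequences were not compared, so this likeness does not show which probe sets can separate the genes. Each line gives the 150 bases before the annotated start, 5′ to 3′ on the strand of the gene, from RefSeq on GRCm38.p6, with the motif TATAAA in capitals. The first lies at chr7:11005595-11005744 on the plus strand, the second at chr7:11166149-11166298 on the minus strand and the third at chr7:11397765-11397914 on the plus strand.
Zscan4c: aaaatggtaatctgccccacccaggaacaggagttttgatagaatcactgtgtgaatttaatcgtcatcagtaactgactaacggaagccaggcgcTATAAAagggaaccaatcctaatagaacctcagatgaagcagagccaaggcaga
Zscan4d: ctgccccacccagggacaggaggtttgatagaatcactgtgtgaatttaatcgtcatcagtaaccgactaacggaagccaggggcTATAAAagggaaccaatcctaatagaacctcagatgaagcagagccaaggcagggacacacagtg
Zscan4f: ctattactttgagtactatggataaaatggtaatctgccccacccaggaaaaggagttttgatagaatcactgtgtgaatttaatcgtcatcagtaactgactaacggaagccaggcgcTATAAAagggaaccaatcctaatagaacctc

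Windows of 300 bases, from 250 before to 50 after the start, were aligned end to end, with gap columns counted as differences. Zscan4c and Zscan4d matched in 281 of 311 columns (90.4%) and Zscan4c and Zscan4f in 275 of 323 (85.1%). Zscan4d and Zscan4f matched in 259 of 334 (77.5%). The annotated starts are offset, as the places of TATAAA below show, which adds gaps. These shares therefore do not rank the genes by likeness. Without gaps, the Zscan4f window matched that of Zscan4b, another gene of the shared probe sets, in 287 of 300 bases (95.7%). The window of Zfp352 was 46.1% to 48.5% identical to those of the Zscan4 genes. TATAAA was searched on both strands. It began 54 bases before the start in Zscan4c, 65 before it in Zscan4d and 31 before it in Zscan4f, each time on the strand of the gene, and 13.6% of the 32851 windows in the table hold it.

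RefSeq promoter windows matched 6 of the 10 members, with 7 windows, since Sp110 has an entry for each of 2 starts. No window is given for Zfp750, Tmem92, Tcstv1 and Tcstv3, so the counts that follow do not cover them. These windows held 0 to 5 CpG dinucleotides, against a median of 7 over all 32851 windows, and 31.4% of all windows held 3 or fewer. The counts were 0 for Tdpoz4, 2 for Zfp352, 3 for Zscan4d, 3 for Zscan4f, 4 for Zscan4c, and 3 and 5 for Sp110. Polycomb marks are known to sit mainly at CpG-rich promoters, and no such mark was measured here. TGCACAC, a sequence bound by Zscan4 proteins, was searched on both strands and occurred in 0 of the 7 windows and in 4.4% of all windows. The search covers the letters of these windows and nothing beyond them.

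Of the 10 units, 6 reached the filter level: the shared Zscan4 unit, Zscan4c, Zscan4d, Tmem92, Sp110 and Zfp750. The filter passed 13314 of all 22180 genes, so the share of the units was near that of genes at large. Each of the 6 also reached the filter level by the mean of the controls alone. Zfp750 was the 1 unit counted as higher in GSK-J4 and 0 units were lower. Among the 13314 genes at the filter level 294 (2.21%) were higher and 112 (0.841%) lower by the same rule. With each control array in turn in the place of GSK-J4, 0 of the 6 units were counted in either direction, beside 0.00751% of genes for medium, 0.0225% for DMSO and 0.0% for GSK-J5.

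**Figure D1:**
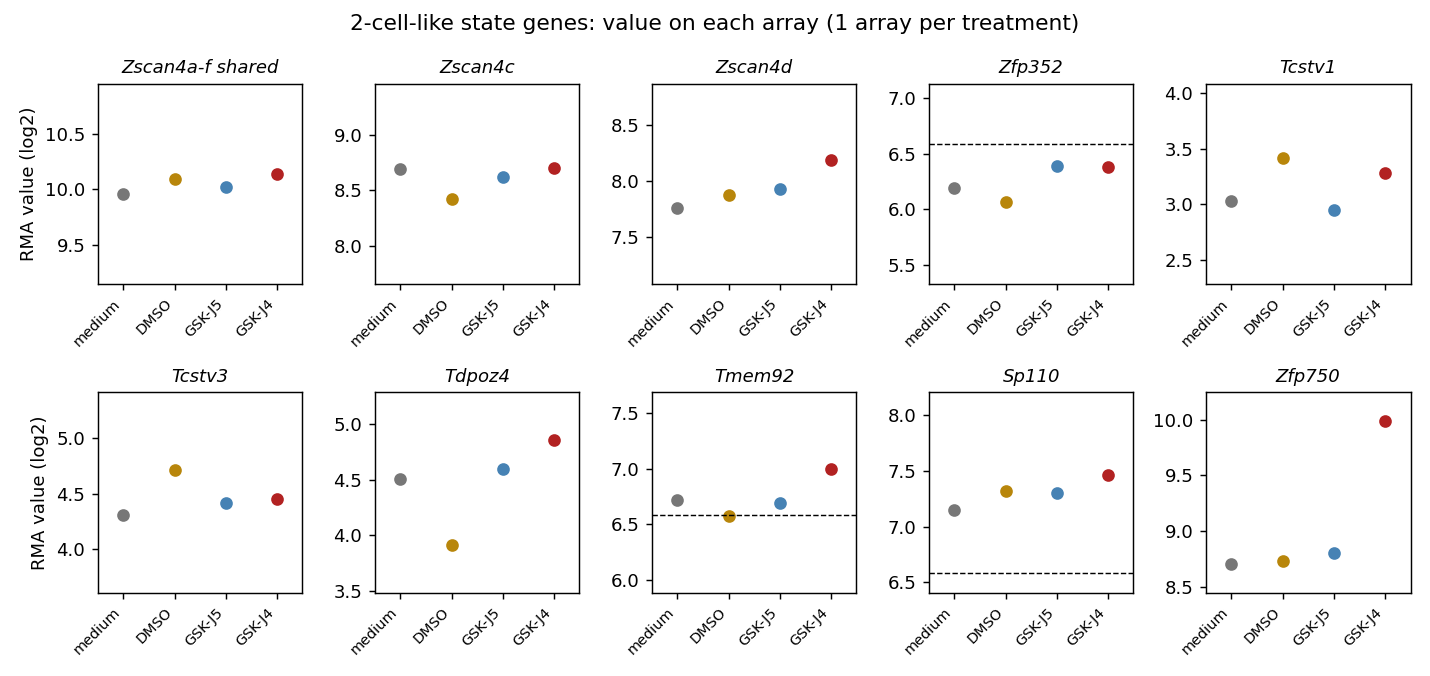
Value of each unit on each of the 4 arrays (y axis, log2 RMA value; every panel spans the same 1.8 log2 units around its own centre; 1 point per array). The dashed line is the filter level of 6.585 where it falls inside a panel; Zfp750 stands apart in GSK-J4, at 9.99 against 8.70 to 8.80.

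The Zscan4 genes encode SCAN domain zinc finger proteins of the 2-cell embryo. The brighter of the 2 shared Zscan4 probe sets read 9.96 in medium, 10.09 in DMSO, 10.02 in GSK-J5 and 10.14 in GSK-J4. The GSK-J4 value exceeded the DMSO value by 0.05, less than the range of 0.13 over the controls. The other shared probe set read 9.47, 9.48, 9.38 and 9.64 in the same order, with a margin of 0.16. Both had GSK-J4 as their highest array, by less than the rule asks.

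Zscan4c, through its own probe set, read 8.69 in medium, 8.42 in DMSO, 8.62 in GSK-J5 and 8.70 in GSK-J4. Its margin of 0.01 is the smallest step that the 2 decimals of the deposited values allow, so GSK-J4 and medium were level. Zscan4d read 7.76 in medium, 7.87 in DMSO, 7.93 in GSK-J5 and 8.19 in GSK-J4. Here GSK-J4 lay above the controls by 0.26, and the controls themselves spanned 0.17.

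The other Zscan4 genes, named after their values were seen, did not all lie on the same side. Zscan4b read 9.47 in GSK-J4, the controls lying between 9.00 and 9.34, and Zscan4e, a pseudogene in RefSeq, read 10.28 against 9.97 to 10.23. Zscan4a, listed by RefSeq as a transcribed pseudogene, read 7.30 against 7.43 to 7.50 and so was lowest in GSK-J4, with a margin of −0.13. Since the probes of these genes can bind transcripts of their near copies, the Zscan4 values are not independent of each other and the share of each gene is uncertain.

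Zfp352, a zinc finger gene first found in 2-cell embryos, read 6.19 in medium, 6.07 in DMSO, 6.39 in GSK-J5 and 6.38 in GSK-J4. The 2 compound arrays were level with each other and above the other 2, and the whole gene stayed under the filter level. Tcstv1 and Tcstv3 belong to a group of genes of variable expression at the 2-cell stage. Tcstv1 read 3.03, 3.42, 2.95 and 3.28 in medium, DMSO, GSK-J5 and GSK-J4, and Tcstv3 read 4.31, 4.71, 4.42 and 4.45. In both genes DMSO was the highest array and GSK-J4 lay inside the range of the controls.

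Tdpoz4, which encodes a protein with a TRAF-like and a POZ domain, read 4.51 in medium, 3.91 in DMSO, 4.60 in GSK-J5 and 4.86 in GSK-J4. GSK-J4 was highest by 0.26, but the controls spanned 0.69. Zfp352, Tcstv1, Tcstv3 and Tdpoz4 were all too dim for the filter. Whether they exceeded background is unknown, and the sizes of their differences are not exact.

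Tmem92, a gene for a small transmembrane protein, read 6.72 in medium, 6.57 in DMSO, 6.69 in GSK-J5 and 7.00 in GSK-J4. It was highest in GSK-J4 by 0.28, wider than the range of 0.15 over the controls, and DMSO read just below the filter level.

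Sp110, a nuclear body gene that interferon induces, had 3 probe sets of its own and 1 shared with A530040E14Rik. The brightest read 7.15 in medium, 7.32 in DMSO, 7.30 in GSK-J5 and 7.46 in GSK-J4, a margin of 0.14. A second one read 6.84, 6.91, 6.70 and 7.46 in the same order, and its margin of 0.55 came close to the rule without reaching it. The third read 4.79, 4.69, 5.00 and 5.09, below the filter level, and the shared one 7.00, 7.09, 6.97 and 7.36. All 4 probe sets were highest in GSK-J4, with margins between 0.09 and 0.55, so the size depended on the probe set.

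Other interferon response genes did not share this order. Of the 10 measured in that list, 4 reached the filter level, 0 were counted, and 0 lay above all 3 controls, while 6 lay below all of them, beside 30.6% and 36.3% of all genes. Their summed log2 level was 65.54 in GSK-J4 and 67.25 to 68.53 in the controls. The part of this list in the Sp110 values was not tested.

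Zfp750, a zinc finger gene best known as a regulator of epidermal differentiation, was the member that stood apart. It read 8.70 in medium, 8.73 in DMSO, 8.80 in GSK-J5 and 9.99 in GSK-J4. The controls spanned 0.10, and GSK-J4 exceeded the nearest by 1.19, or 2.28-fold. By margin it ranked 36 of the 13314 genes, whereas Tmem92 ranked 1168, Zscan4d 1297, Sp110 2506 and Zscan4c 4826.

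Of 6 measured epidermal markers, 4 reached the filter level and 0 were counted, beside 2.21% of genes higher and 0.841% lower. Their summed log2 level was 48.14 in GSK-J4 and 48.52 to 48.93 in the controls. Trp63, the master regulator of epidermis that acts above Zfp750 in skin, read 5.89 in GSK-J4 against 5.93 to 6.09. The keratin gene Krt14 read 5.88 against 6.29 to 6.51, and both genes were under the filter level. The 4 at the filter level went both ways, 2 higher and 2 lower than in GSK-J5, with a median difference of 0.10. Grhl3, a transcription factor of the epidermal barrier, read 11.02 against 10.70 to 10.78, and Klf4 read 9.26 against 8.88 to 9.01. Ovol1 read 7.03 against 7.35 to 7.53, and Sfn 9.06 against 9.10 to 9.24. The summed level includes the 2 genes under the filter. The part of these genes in the Zfp750 value was not tested.

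The genes whose 4 values, each taken relative to the mean of its controls, lay nearest to those of Zfp750 were Ephx1, an epoxide hydrolase (Euclidean distance 0.044 log2 units), Mmrn2, a gene for an extracellular matrix protein of endothelium (0.062), and Acot2, a mitochondrial acyl-CoA thioesterase (0.099). This likeness rests on 4 arrays and in effect on the size of the GSK-J4 difference. Their margins were 1.19, 1.12 and 1.28.

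**Figure D2:**
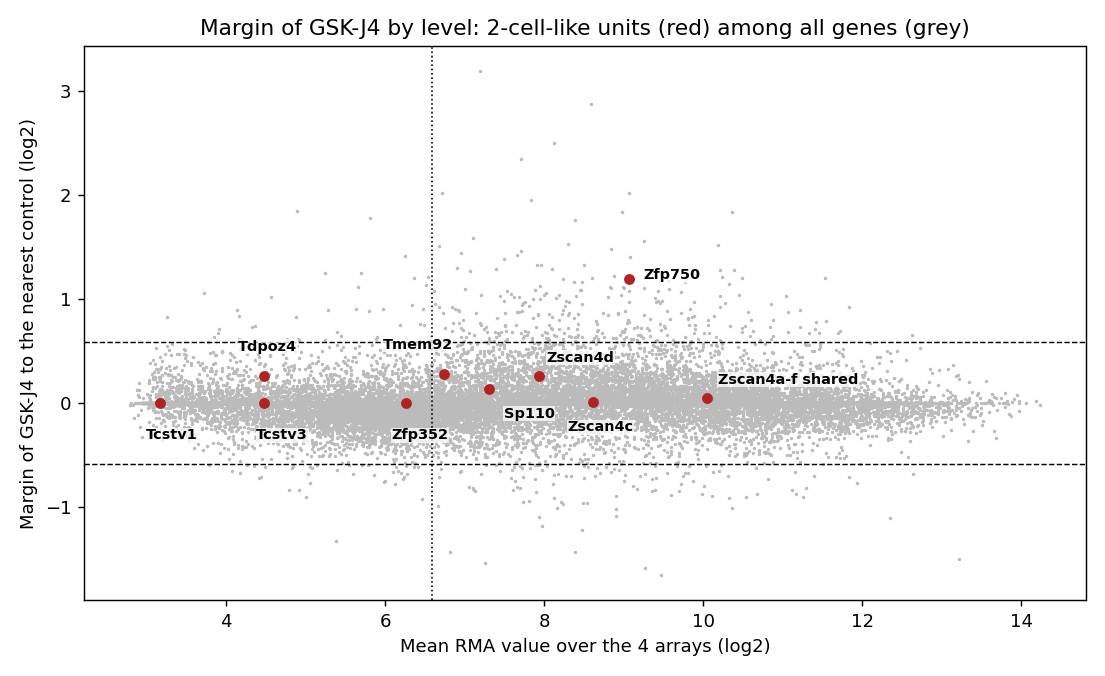
Margin of GSK-J4 to the nearest control (y axis, log2) against the mean value over the 4 arrays (x axis, log2) for the 10 units (red, labelled) and all other genes (grey). Dashed lines mark 1.5-fold and the dotted line the filter level of 6.585; Zfp750 lies above the upper dashed line at 1.19 and the other 9 units lie between 0 and 0.28.

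By any amount, GSK-J4 was above all 3 controls in 7 of the 10 units and below all of them in 0. Over the 22180 genes 30.6% lay above and 36.3% below. Of these 7 units, 3 are Zscan4 units, which share transcripts. The count was 6 after median centring, 5 after repeated quantile normalization and 7 under loess, with 0 below in each. Zscan4c fell inside the range of the controls under all 3 rescalings, and the shared Zscan4 unit under quantile normalization. Under loess Zfp352 entered the count with a margin of 0.06, so those 7 units are not the same 7. The same count gave 0 units for medium, 2 for DMSO and 1 for GSK-J5 as the highest array, beside 21.6%, 21.7% and 22.0% of genes. Only 1 array can be highest in a unit, so these counts are the remainder of the GSK-J4 count and no separate background for it.

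In the pair of isomers, at the same dose and time, GSK-J4 was higher than GSK-J5 in 9 units and lower in 1, with differences from −0.01 for Zfp352 to 1.19 for Zfp750. The median difference over the 10 units was 0.21, beside −0.02 over all genes. Without Zfp750 the median of the other 9 was 0.16. By the rule of 2-fold for a pair of arrays, Zfp750 was higher in GSK-J4 than in GSK-J5 and 0 other units at the filter level were counted, beside 110 genes (0.826%) higher and 19 (0.143%) lower.

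Against DMSO the median over the units was 0.29, with 8 higher and 2 lower (Tcstv1 by −0.14, Tcstv3 by −0.26), and against medium it was 0.27 with 10 higher. The medians over all genes were −0.02 and −0.01. These comparisons share the GSK-J4 array and so are not independent of each other.

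Between control arrays the units differed by less in the median. GSK-J5 minus DMSO had a median of 0.06, with 6 units higher and 4 lower, and DMSO minus medium a median of 0.07, with 6 higher and 4 lower. GSK-J5 minus medium had a median of 0.10, with 7 higher and 3 lower. Single dim units still moved as far as most GSK-J4 differences: Tdpoz4 was higher by 0.69 in GSK-J5 than in DMSO, and Tcstv1 differed by −0.47. Over all genes the SD of the differences was 0.181 for GSK-J5 minus DMSO and 0.292 for GSK-J4 minus GSK-J5.

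**Figure D3:**
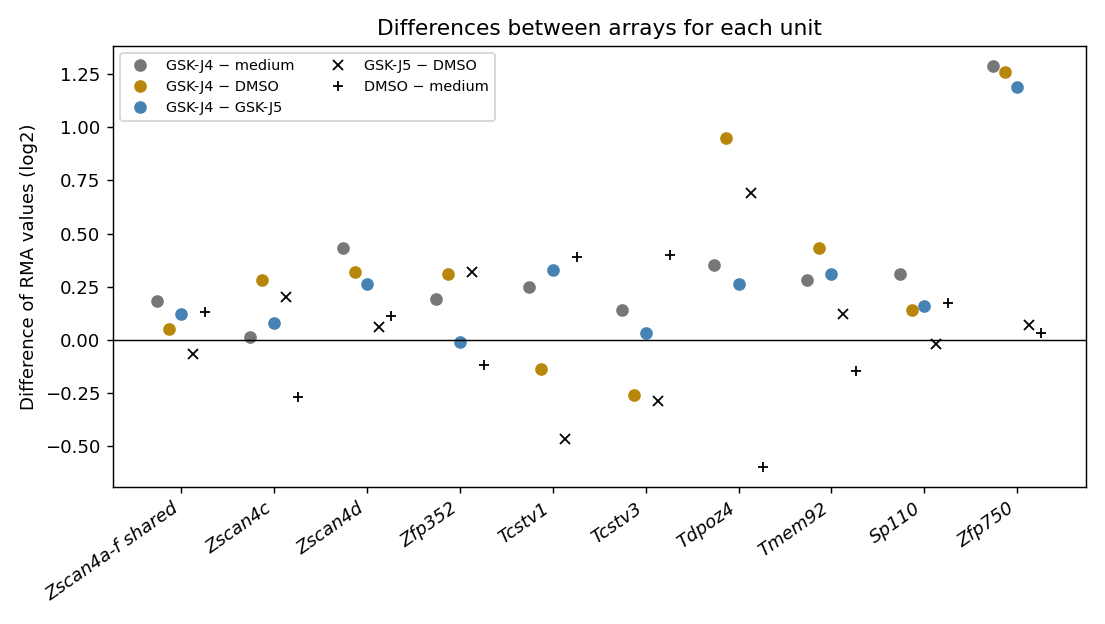
Differences between pairs of arrays (y axis, log2) for each of the 10 units (x axis). Circles are GSK-J4 minus medium, DMSO and GSK-J5, crosses are GSK-J5 minus DMSO and plus signs DMSO minus medium. The 3 circles of Zfp750 lie at 1.29, 1.26 and 1.19. For Tcstv1, Tcstv3 and, narrowly, Zfp352 (0.32 against 0.31) the largest difference is between 2 controls. Tdpoz4 spans −0.60 to 0.69 between controls and reaches 0.95 for GSK-J4 minus DMSO.

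A wider list of 47 genes linked to the 2-cell-like state had 32 with a probe set of their own, of which 13 reached the filter level. By the rule of size 1 was higher, Ddit4l, and 0 lower. The shares over all genes at the filter level were 2.21% and 0.841%, for this list as for the regulators below. Ddit4l, an inhibitor of mTORC1 signalling, read 7.61 in medium, 7.39 in DMSO, 7.46 in GSK-J5 and 8.58 in GSK-J4. It lay 0.97 above the nearest control, or 1.96-fold, while the controls spanned 0.22. The next largest differences from GSK-J5 among those 13 were in Usp17le, a ubiquitin-specific peptidase gene (7.75 in GSK-J4 against 7.15 to 7.58), Gm5662 (7.11 against 6.63 to 7.01) and Zscan4b. Each of these exceeded the nearest control by at most 0.17 and was not counted.

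Over the 32 genes the median difference between GSK-J4 and GSK-J5 was 0.08, with 19 higher and 13 lower. GSK-J4 lay above all 3 controls in 14 and below all of them in 5, beside 30.6% and 36.3% of all genes. Outside the rule for naming, AF067061 had a margin of 0.62 (5.30 against 4.48 to 4.68), but its mean of 4.76 was under the filter level; it was picked with its values known. Probe sets shared by the Gm4340 family, also chosen after their values were seen, had margins of 0.16 to 0.35. Of these probe sets, 4 carry identical values (10.59 in GSK-J4 against 10.23 to 10.33), so they count once. The probe set of Gm4340 alone had a margin of 0.02. Outside the Zscan4 family, the other shared probe sets of the wider list differed. Margins were 0.19 for one naming Gm2022, 0 for Gm5039 with Gm5662 and for Tdpoz5 with Tdpoz7, and −0.04 for Tdpoz1 with Tdpoz9.

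Factors that switch the state on showed no common difference. Of 9 activators listed, 6 had a probe set of their own, 5 reached the filter level and 0 were counted. Dux itself, listed as Duxf3, read 3.95 in medium, 4.19 in DMSO, 4.26 in GSK-J5 and 4.49 in GSK-J4, under the filter level on every array. Dppa2 and Dppa4, the paired factors that act above Dux, read 13.05 in GSK-J4 against 13.03 to 13.07, and 11.84 against 11.77 to 11.82. Nelfa read 11.95 against 11.96 to 12.01, and Smad7 10.56 against 10.50 to 10.70. The 3 probe sets shared by Duxbl1, Duxbl2 and Duxbl3, relatives of Dux, were lowest in GSK-J4, with margins of −0.28 to −0.35.

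Dppa3, a maternal factor that protects DNA methylation in the early embryo, was the activator farthest from the controls. It read 8.94 in GSK-J4 against 9.42 in medium, 9.42 in DMSO and 9.47 in GSK-J5, a margin of −0.48. The 3 controls lay within 0.05 of each other, and the difference fell short of the rule.

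All 25 repressors listed reached the filter level and 0 were counted. GSK-J4 lay below all 3 controls in 14 of them and above in 5, beside 35.5% and 38.0% of the genes at the filter level. The median difference from GSK-J5 was −0.05 over the 25, and 0.00 over all genes at the filter level. Ehmt2, the H3K9 methyltransferase G9a, read 11.41 in medium, 11.36 in DMSO, 11.33 in GSK-J5 and 10.77 in GSK-J4. Its margin of −0.56 lay just inside the rule, and leaving out the GSK-J5 array moved it to −0.59, past the rule. Its partner Ehmt1 read 10.31 against 10.54 to 10.59. Zfp809, which recruits silencing to retroviral sequences, read 10.50 against 10.21 to 10.24, and Mga, a scaffold of a Polycomb complex, 12.09 against 11.86 to 11.91. The silencing factors Trim28 and Setdb1, and Chaf1a of CAF-1, which were named after their values were seen, had margins of −0.05, −0.06 and −0.08.

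**Figure D4:**
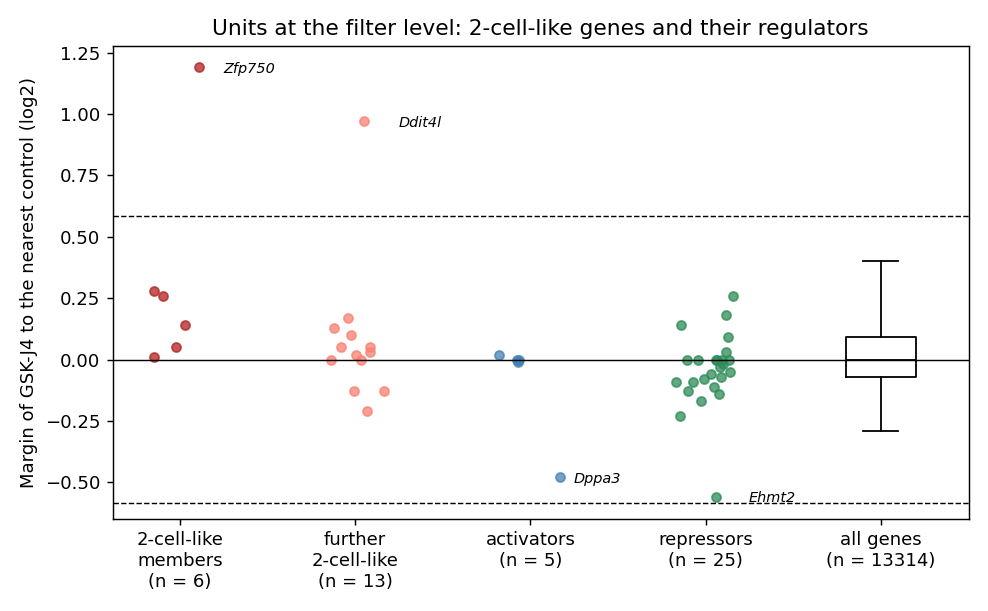
Margin of GSK-J4 to the nearest control (y axis, log2) for units at the filter level: 6 of the 2-cell-like units, 13 further 2-cell-like genes, 5 activators and 25 repressors (1 point per unit, spread sideways for legibility), with a box for the 13314 genes (box, quartiles and median; whiskers, 5th and 95th percentiles). Dashed lines mark 1.5-fold; Zfp750 (1.19) and Ddit4l (0.97) lie beyond the upper line, and Ehmt2 (−0.56) lies just inside the lower.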

How the data were processed

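Total RNA of 4 cultures, 1 for each treatment, was hybridised to Affymetrix arrays. The authors ran RMA, per the submitters' processing notes, which name Affymetrix Expression Console 1.2.1.20. The deposited values are log2 intensities with 2 decimals; base 2 is inferred from their range, 2.20 to 14.48. RMA gives the arrays a common distribution, and precision is limited by the number of arrays. The genome build and scanner files were not used here.

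Symbols came from the platform table, which can be old: 23521 probe sets had 1 symbol, 1814 several and 16010 none. A gene took its brightest probe set. Probe sets naming several Zscan4 genes formed 1 unit. Of the member symbols, 0 differed from RefSeq.

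The rule of size was run on simulated data with independent noise and planted changes well above or well below its cutoff. That setting holds no variation between cultures. It checks that the rule was computed as stated and gives no error rate for these data. Alternatives were other filters, scalings, folds and probe set summaries, and leaving out each control. The text names every member, counted genes of the wider lists or else those farthest from GSK-J5, and the 3 genes nearest to each counted member. Members and lists were chosen with earlier results of these data known. Python 3.11.15, pandas 2.3.3, statsmodels 0.14.6 and Biopython 1.88 were used.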

Additional observations from a re-analysis of the deposited data

How the results depend on the processing

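Zfp750 stayed counted as the 1 higher unit under all 13 alternatives run, 12 of which gave it a margin, from 1.12 to 1.26. No filter, the 1.3-fold rule, single-symbol genes alone, the median over probe sets and leaving out a control could not have removed it. The alternatives that could were the 3 rescalings, the 2-fold rule, the 60th percentile filter and the filter on the control mean. Over the 13 alternatives the share of all genes counted as higher ran from 0.571% (2-fold) to 5.66% (1.3-fold). The median difference of the 10 units between GSK-J4 and GSK-J5, 0.21, stayed positive in all 12 alternatives, but its size moved by more than the spread of the controls (SD 0.048). It was 0.12 over units at the 60th percentile filter, 0.15 after repeated quantile normalization, 0.26 with the median over probe sets or single-symbol genes alone, 0.27 as a mean, 0.29 against DMSO and 0.27 against medium. The wider list had 2 higher genes with no filter, 0 at the 60th percentile filter and 0 at 2-fold. The shares over all genes were 1.54%, 2.15% and 0.571% in the same order. Among regulators 2 were lower at 1.3-fold, beside 2.91% of all genes. Leaving out single controls gave 0 to 1 lower regulators, beside 0.969% to 1.06% of all genes. The median over the regulators, −0.05, was −0.07 against medium. The filter on the control mean, the filtered median and the other references for the wider list and regulators were chosen after seeing the data. No paired analysis was possible because each treatment has 1 array. Without replicates, differences of any size, counted or not, cannot be told from variation between cultures or arrays. The 1.5-fold rule is one of size and does not measure that variation. Differences of dim units (Tcstv1, Tcstv3, Tdpoz4, Zfp352, Dux) are the least certain. The cause of these shifts was not tested.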
